A study of Mus musculus with 14 samples.

Results

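Collagen genes were followed through 10 lists of chromatin peaks from differentiating mouse muscle cells. The members were all genes whose annotated name has the form Col, a number, a and a number, taken as the nearest gene of a peak. There were 44 such genes among the 19732 protein-coding genes named in any list, and 1616 of all 517016 annotated peaks carried their names. Of the 44 genes, 11 encode fibrillar collagens (422 peaks), 6 encode the type IV collagens of basement membranes (163 peaks) and 27 encode other collagens (1031 peaks).

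The lists came from chromatin immunoprecipitation and sequencing (ChIP-seq) in C2C12, an established mouse myoblast line that fuses into myotubes when serum is lowered. The siMyolinc group was transfected with siRNA (10 nM) that targets Myolinc, a long noncoding RNA, and was compared with control cells. The labels do not say whether control cells received a control siRNA. Both groups were taken on day 2 of differentiation, and every list was called against IgG. The antibodies recognised TDP-43 (1 siMyolinc and 3 control libraries), MyoD and Myogenin, which are transcription factors of muscle, and the serine-2-phosphorylated form of RNA polymerase II, here Pol II S2P (1 siMyolinc and 1 control library each). Nothing in the labels places the 3 TDP-43 control libraries in separate cultures, so their spread may be technical. All comparisons rest on a single line of cells, and the loss of Myolinc itself cannot be read from ChIP-seq.

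Collagens are secreted proteins of the extracellular matrix built as triple helices. Fibrillar collagens assemble into the cable-like fibres of connective tissue, type IV collagens form the sheet-like net of the basement membrane that wraps each muscle fibre, and the remaining types link, anchor or span these structures. Their genes are known for many short exons that encode the helical repeat. TDP-43 is an RNA- and DNA-binding protein with a preference for UG- and TG-rich stretches, MyoD and Myogenin bind E-boxes, and the serine-2 form of polymerase marks elongation.

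The lists differed in length, depth and shape. They held 24960 peaks for TDP-43 in siMyolinc cells, against 29703, 10571 and 8162 in controls, 109522 in siMyolinc and 71878 in control cells for MyoD, 20441 and 115000 for Myogenin, and 116064 and 10715 for Pol II S2P. Numbers of peaks per gene stand against these lengths. Scores in each list, apart from the 1% highest, which were not checked, were whole multiples of a single step, read as 1 sequence tag. If scores were scaled to 10000000 tags, the TDP-43 libraries held 3250000 tags in siMyolinc cells, against 1390000, 1090000 and 960000 in controls. The Pol II S2P libraries held 3780000 tags in siMyolinc cells and 1460000 in control cells, whereas MyoD (3310000 and 3380000) and Myogenin (3040000 and 3400000) were close between siMyolinc and control cells. Median peak width was 75 bp in the MyoD and Myogenin siMyolinc lists and 217 to 249 bp in the other 8. The median collagen peak held 7 tags in the TDP-43 siMyolinc list, against 8, 6 and 6 in the controls. It held 23 tags in siMyolinc and 8 in control cells for MyoD, 160 and 16 for Myogenin, and 11 and 6 for Pol II S2P. At 7 muscle marker genes (Myod1, Myog, Des, Ckm, Acta1, Myh3 and Tnnt3) the lists held 3 to 23 peaks at 2 to 7 of the genes. Peaks do not measure expression, so cell identity was not checked further.

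Of the 44 collagen genes, 21 had a promoter peak in any list, 14 of them in 1 list. The same count over all genes was not made. Per list, 2.27 to 13.6% of collagen genes had one, where 1.71 to 12.5% of all protein-coding genes did. A promoter peak is one that the deposited annotation calls promoter-TSS, and 32 of the 1616 collagen peaks were of this class, beside 126 in exons, 936 in introns, 6 in 5′ UTRs, 11 in 3′ UTRs, 8 at transcription ends and 497 between genes. Of all peaks, 1.84 to 25.6% per list were in exons, 27.4 to 41.6% in introns and 35.7 to 56.3% between genes. With TDP-43, 2 of 44 collagen genes had a promoter peak in siMyolinc cells (2.78% of all protein-coding genes did), against 6, 3 and 1 in the controls (5.65%, 2.34% and 1.83%). The siMyolinc count lay inside the range of the controls, whose mean was 3.33 ± 2.52 genes (SD, n = 3), and an exact two-sided permutation test gave p = 0.75, where 0.25 is the smallest p that 1 library against 3 allows. Counting instead every collagen gene with a peak centre within 1000 bp of its start gave 3 genes in siMyolinc cells, against 11, 8 and 4 in controls. The difference was -4.67 in place of -1.33, with an exact permutation p of 0.5. The share of all genes within that distance was not computed, so this difference cannot be called particular to collagens. With MyoD, 5 collagen genes had a promoter peak in siMyolinc cells (12.5% of all genes) and 1 did in control cells (4.45%). With Myogenin there was 1 in siMyolinc cells (2.72%) and 5 in control cells (7.20%), and with Pol II S2P there were 6 in siMyolinc cells (9.91%) and 1 in control cells (1.71%). Single libraries allow no test of these last 3 pairs.

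Col6a6, which encodes a chain of the microfibril-forming type VI collagen, had a promoter peak in 4 lists, more than any other collagen gene. The TDP-43 peak held 7 tags in siMyolinc cells, against 12 and 4 tags in controls 1 and 2, and control 3 had none there. The Pol II S2P control list had a peak of 6 tags at the same place, and the Pol II S2P siMyolinc list had none. All 4 peaks crossed the start of the gene used here, chr9:105828085, and shared 102 bases, chr9:105828029-105828130. Col4a4 and Col4a3, neighbouring genes for basement membrane chains, start 72 bases apart on opposite strands of chromosome 1, and TDP-43 controls 1 and 2 had overlapping peaks of 13 and 6 tags across both starts. The siMyolinc TDP-43 list and control 3 had no peak there. Col24a1, a minor fibrillar collagen gene, had a peak of 9 tags in each of the MyoD siMyolinc, Pol II S2P siMyolinc and Myogenin control lists. These scored low in their lists, at ranks 100973 of 109522, 78400 of 116064 and 97973 of 115000. The MyoD peak (75 bp) lay at positions -99 to -25 relative to the start, the Pol II S2P peak crossed it, and the Myogenin peak began 22 bases inside the gene, in the annotated 5′ UTR.

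The bases before these starts are shown because peaks of different lists met there. Col14a1, described further on, was another such start and is named only. The bases come from RefSeq promoter windows of GRCm38.p6, the build also named mm10. They read 5′ to 3′ on the gene's strand up to the base before the start of the window's transcript. In the RefSeq gene table Col6a6 and Col4a4 reach further, to chr9:105828246 and chr1:82587034. By that table the capital bases of both lie inside the gene. Capitals mark bases under every one of the peaks named for that gene: all 4 peaks for Col6a6 (minus strand, chr9:105828086-105828335), the TDP-43 control 1 and 2 peaks for Col4a4 (minus strand, chr1:82586850-82586920, the stretch between both starts), and the MyoD and Pol II S2P siMyolinc peaks for Col24a1 (plus strand, chr3:145292222-145292471).
Col6a6: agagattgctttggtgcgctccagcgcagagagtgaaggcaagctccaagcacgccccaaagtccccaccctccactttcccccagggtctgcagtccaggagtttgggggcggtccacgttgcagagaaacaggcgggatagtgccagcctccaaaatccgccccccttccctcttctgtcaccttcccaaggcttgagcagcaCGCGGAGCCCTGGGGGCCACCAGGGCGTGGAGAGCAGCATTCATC
Col4a4: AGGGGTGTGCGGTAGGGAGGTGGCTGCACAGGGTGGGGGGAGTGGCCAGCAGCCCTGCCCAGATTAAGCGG
Col24a1: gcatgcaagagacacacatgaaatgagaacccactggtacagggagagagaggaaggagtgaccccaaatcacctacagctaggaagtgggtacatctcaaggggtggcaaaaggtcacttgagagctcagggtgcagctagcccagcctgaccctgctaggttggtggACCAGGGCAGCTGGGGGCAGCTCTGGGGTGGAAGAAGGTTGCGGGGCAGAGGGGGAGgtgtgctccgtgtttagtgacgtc
The whole stretch of 71 bases between the Col4a4 and Col4a3 starts lay under both TDP-43 peaks. G and C made up 69.0% of it, and 71.1% of the 45 capital bases of Col6a6. No TGTGTG, on either strand, stood in these Col6a6 and Col4a4 stretches. In Col24a1 the 57 capital bases held 1 E-box (CANNTG, the same on both strands), and its letters were CAGCTG, while 2 further E-boxes, CACATG and CACTTG, stood outside the shared bases. Over RefSeq windows of 300 bases, 35 of the 44 collagen genes were matched, with 38 windows. CANNTG stood in 20 of these 38 windows (52.6%) and in 72.3% of all 32851 windows. The CAGCTG form, which CANNTG includes, stood in 18.4% of collagen windows and 16.3% of all windows. TGTGTG on either strand stood in 23.7% of collagen windows and 21.1% of all windows. These matches describe letters and not bound sites.

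**Figure D1:**
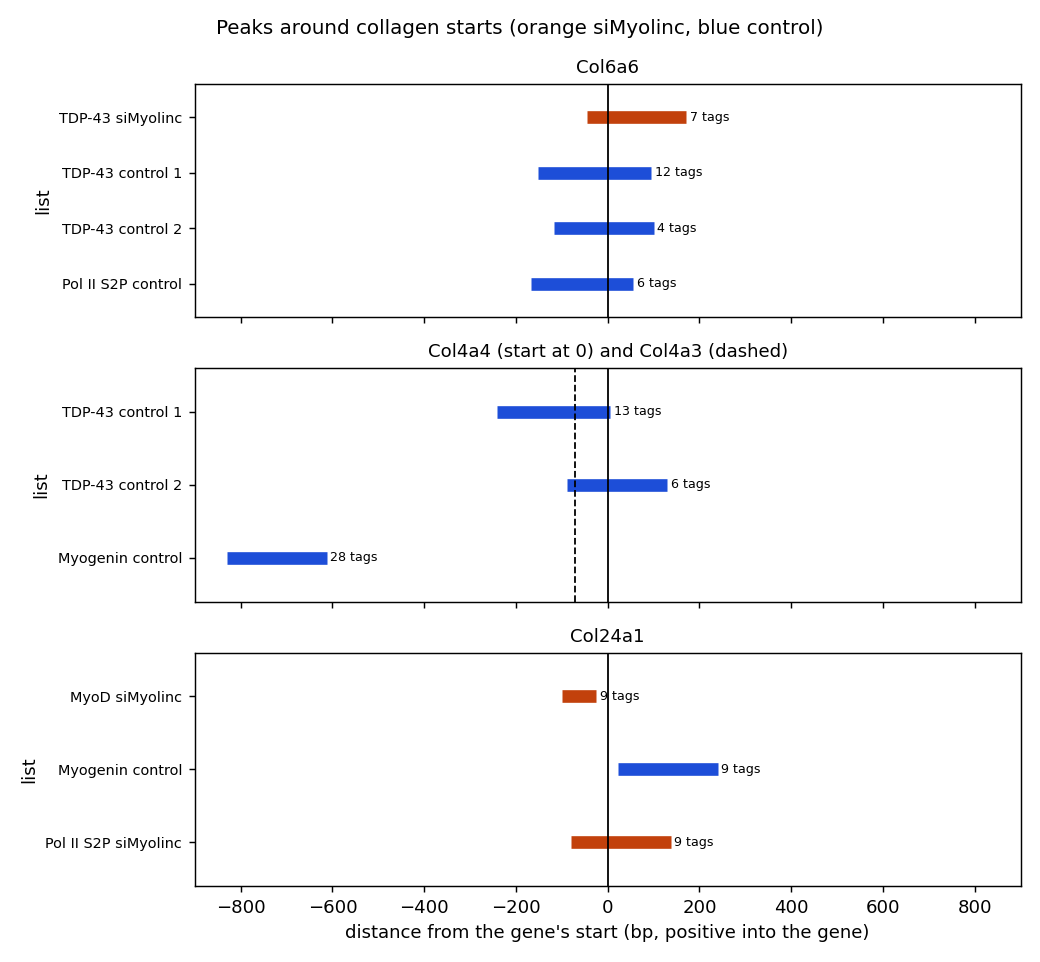
Spans of all peaks within 700 bp of 3 collagen starts, as distance in bp from the start with positive values inside the gene; each bar is 1 peak of 1 list with its tag number, orange for siMyolinc and blue for control, and the dashed line is the Col4a3 start, 72 bases before that of Col4a4. The 4 Col6a6 peaks cross the start, and at Col24a1 the MyoD siMyolinc bar ends before the start.

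Among the fibrillar collagens, promoter peaks outside Col24a1 were found at 4 genes. Col1a1, which encodes the main chain of type I collagen, had 1 of 5 tags in TDP-43 control 3, centred 152 bases before its start, and no other list had a promoter peak at this gene. Col2a1, for the collagen of cartilage, had a peak of 8 tags 26 bases after the start in the MyoD control list and a peak of 16 tags 584 bases before it in the Myogenin control list. Col11a2, also a cartilage collagen gene, had 2 promoter peaks in the Pol II S2P siMyolinc list, of 19 tags at 848 bases and 11 tags at 6 bases before the start. Col27a1 had 1 peak of 16 tags in the MyoD siMyolinc list and 1 of 19 tags in the Pol II S2P siMyolinc list, on either side of the start.

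TDP-43 gave 13 peaks at fibrillar genes in the siMyolinc list, against 19, 3 and 7 in the controls. They were named for 7 of the 11 genes in siMyolinc cells (63.6%, where 50.2% of all protein-coding genes had a peak), against 8, 3 and 5 in controls (72.7%, 27.3% and 45.5%, where 54.9%, 29.8% and 24.8% of all genes had one). Col5a2, a regulator of fibril diameter with type I collagen, had no TDP-43 peak in any of the 4 lists, by name or inside its gene body. The other antibodies gave 114 fibrillar peaks in siMyolinc and 46 in control cells for MyoD, 18 and 88 for Myogenin, and 108 and 6 for Pol II S2P. Col5a1 led the MyoD siMyolinc list with 25 peaks, against 10 in the MyoD control list, and had 5 in the Myogenin siMyolinc list and 6 in the Myogenin control list. Col3a1, whose collagen accompanies type I in elastic tissue, had 1 Myogenin peak in siMyolinc cells and 22 in control cells. Of the peaks named for fibrillar genes 205 of 422 lay between genes, 39 of them at Col1a2 and 39 at Col3a1. For the basement membrane genes it was 8 of 163. Over all peaks, 35.7 to 56.3% of each list lay between genes.

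The highest-scoring fibrillar peaks were likewise spread over classes. Col5a1 held a Myogenin siMyolinc peak of 341 tags in intron 1 of 65, the 26th peak of that list by score, and a Myogenin control peak of 38 tags elsewhere in the same intron. Col1a1 had the best-scoring collagen peak of the Myogenin control list, 42 tags in a repeat 12012 bases before its start. Col2a1 had a MyoD siMyolinc peak of 56 tags in exon 24 of 53. Col11a2 had a MyoD siMyolinc peak of 55 tags that lay in intron 7 of the neighbouring gene Rxrb, and Col27a1 had a Pol II S2P siMyolinc peak of 32 tags 8882 bases before its start. None of these 6 peaks was in a promoter.

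The basement membrane genes carried mostly intron peaks, 138 of 163, where 27.4 to 41.6% of all peaks per list were in introns. TDP-43 gave 5 peaks at 3 of the 6 genes in siMyolinc cells, against 8, 3 and 1 peaks at 5, 2 and 1 genes in controls. All protein-coding genes had a TDP-43 peak in 50.2% of cases in siMyolinc cells, against 54.9%, 29.8% and 24.8% in controls. Col4a4 had a TDP-43 peak in exon 25 of 48 in all 3 control lists, with 11, 5 and 5 tags, and none there in the siMyolinc list. Col4a2, which with Col4a1 forms the widespread type IV network, was the nearest start of no TDP-43 peak in any list. Inside its gene body, whatever start was nearest, lay 3 TDP-43 peaks in siMyolinc cells, against 3, 1 and 2 in controls; many peaks in Col4a2 transcripts, 32 over all lists, were named for Rab20. By name it had 10 MyoD peaks in siMyolinc and 3 in control cells, 0 Myogenin peaks in siMyolinc and 5 in control cells, and 15 Pol II S2P peaks in siMyolinc and 0 in control cells, all in introns, while its body held 19 Pol II S2P peaks in siMyolinc and 2 in control cells. Promoter peaks other than the TDP-43 peaks above were single ones: Col4a1 with Pol II S2P in siMyolinc cells (13 tags, annotated to a Col4a2 transcript, since these genes also start side by side), and Col4a3 (28 tags) and Col4a5 (11 tags) with Myogenin in control cells. Col4a6 had the third-best collagen peak of the Myogenin siMyolinc list, 296 tags in intron 3.

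Among the other collagens, several places of type VI genes and of the multiplexin Col18a1, the precursor of endostatin, were in 3 or more lists. Col6a1, a chain of the main type VI collagen, had peaks by name in all 10 lists and led TDP-43 controls 2 and 3 with 3 peaks each. The Col6a1 gene body held 2 and 1 peaks in these 2 lists, and 0 in the MyoD, Myogenin and Pol II S2P control lists. In exon 35 of 35 its TDP-43 peak held 6 tags in siMyolinc cells, against 10 and 8 tags in controls 2 and 3 with none in control 1, and the Pol II S2P siMyolinc list had 25 tags there. In exon 32, TDP-43 gave 7 tags in siMyolinc cells and 6 in control 1, and Myogenin gave 188 tags in siMyolinc cells. Exon 1 of 41 in Col18a1 was the place found in most lists: the 3 TDP-43 controls (20, 8 and 5 tags), MyoD siMyolinc (37 tags) and Pol II S2P siMyolinc (11 tags), with no TDP-43 siMyolinc peak. Exon 40 of 44 in Col6a3 held 6 and 8 tags in TDP-43 controls 1 and 2, and the 13 tags there were the best-scoring collagen peak of the Pol II S2P control list.

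Further FACIT (fibril-associated) and transmembrane collagens were named by the most or the best-scoring peaks of single lists. Col22a1, the collagen gene with most peaks, found at tissue junctions such as that of muscle and tendon, had 106 peaks over all lists, 61 of them between genes, and led the Myogenin control list (30 peaks, against 3 in siMyolinc cells) and the Pol II S2P siMyolinc list (26 peaks, against 2 in control cells). Its intron 1 held the best-scoring TDP-43 siMyolinc collagen peak, of 18 tags. Col17a1, a transmembrane collagen of epithelial hemidesmosomes, had a TDP-43 siMyolinc peak of 14 tags in exon 18 of 53. Around its exon 43, overlapping peaks held 16, 6 and 7 tags in the TDP-43 controls, with none in the siMyolinc list, and 26 tags in the MyoD siMyolinc list. Col13a1, the transmembrane collagen of the neuromuscular junction, had 6 TDP-43 peaks in siMyolinc cells, against 7, 0 and 1 in controls. A place in its intron 14 was shared by siMyolinc (7 tags) and controls 1 and 3 (15 and 5 tags). Col25a1, a transmembrane collagen of neurons and muscle, had 21 MyoD peaks in siMyolinc cells and 14 in control cells. Col14a1 had 11 MyoD peaks in siMyolinc cells and 14 in control cells. Col8a1, a short-chain collagen of vessel walls, had 1 Myogenin peak in siMyolinc cells and 20 in control cells, and Col9a1, a cartilage FACIT chain, had 6 and 13. Col24a1 had 17 Pol II S2P peaks in siMyolinc cells and 0 in control cells.

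Promoter peaks of the other collagens, beside Col6a6, were in most cases single. Col12a1, a fibril-associated collagen gene, had 1 each in TDP-43 control 1 (12 tags), MyoD siMyolinc (25 tags) and Pol II S2P siMyolinc (27 tags), none overlapping another; the Pol II S2P peak was nearest, centred 149 bases before the start. Col14a1, of the same class, had overlapping peaks in TDP-43 control 1 (8 tags) and Myogenin control (12 tags), centred 113 and 116 bases before its start. TDP-43 alone gave Col23a1 (8 tags) in siMyolinc cells, and Col25a1 (7 tags, control 2), Col22a1 (10 tags, control 1) and Col9a2 (6 tags, control 1) in control cells. MyoD gave Col13a1 (28 tags) and Col20a1 (33 tags) in siMyolinc cells. Myogenin gave Col16a1 (167 tags) in siMyolinc cells and Col26a1 (9 tags) in control cells, and Pol II S2P gave Col18a1 (20 tags) in siMyolinc cells.

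Further high-scoring peaks at these genes lay away from promoters. The best-scoring collagen peak of the Myogenin siMyolinc list, with 366 tags, was named for Col6a5 and lay in a repeat between genes, 16378 bases before its start. That of the MyoD siMyolinc list, with 57 tags, was in intron 2 of Col15a1, a basement membrane-zone multiplexin. The MyoD control list had 2 peaks of 18 tags named for Col6a1 in intron 2 of Pcbp3 upstream of the Col6a1 start, and 1 of 17 tags in intron 2 of Col23a1. In TDP-43 control 1 the best-scoring one, with 22 tags, lay in a (CA)n repeat in intron 3 of Col26a1, where control 2 had 6 tags and Pol II S2P control had 8. Next in that list came 21 tags in intron 29 of Col17a1. The third-best TDP-43 siMyolinc collagen peak, 12 tags named for Col6a1, lay in intron 9 of Pcbp3. In control 2 a peak of 10 tags lay between genes 40395 bases before Col25a1, and in control 3 one of 9 tags named for Col2a1 lay in Senp1. Col14a1 had 12 tags in intron 1 in TDP-43 control 3. Exon peaks of Col16a1 (10 tags, exon 43 of 70) and Col9a3 (9 tags, exon 30 of 32) came next in the Pol II S2P control list, and Col8a2 had 29 tags in intron 2 with Pol II S2P in siMyolinc cells.

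**Figure D2:**
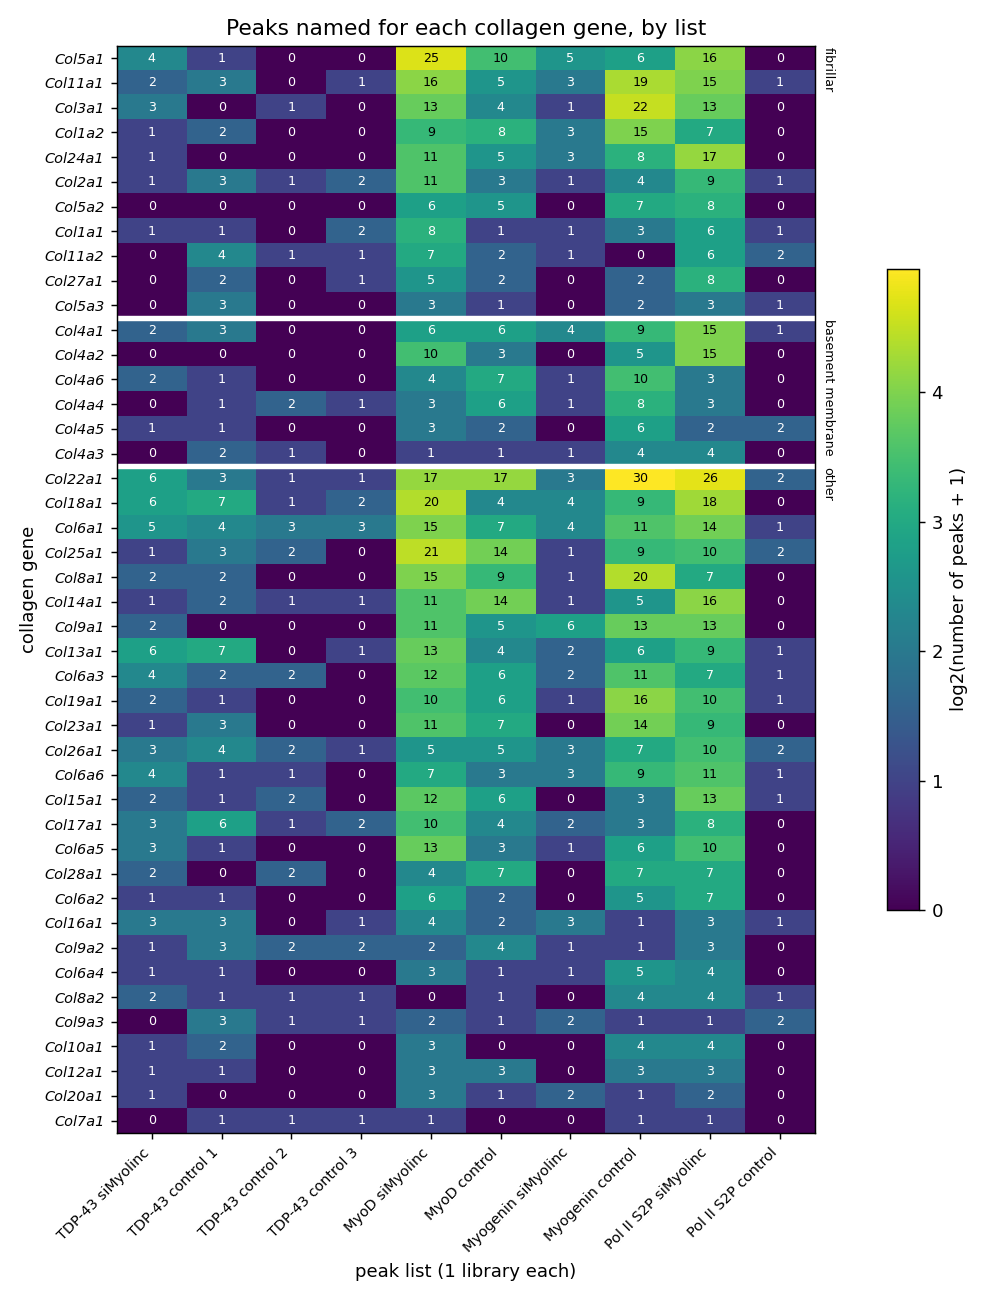
Number of peaks named for each of the 44 collagen genes (rows, grouped as fibrillar, basement membrane and other) in each of the 10 lists (columns, 1 library each), coloured by log2 of the number plus 1. Col2a1, Col6a1, Col22a1 and Col26a1 have a peak by name in all 10 lists, though for Col2a1, Col6a1 and Col22a1 not always inside the gene body. The highest count, 30, is that of Col22a1 in the Myogenin control list.

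Exon peaks made up a smaller share of the collagen peaks with TDP-43 in siMyolinc cells than in any control. Of the TDP-43 collagen peaks 12.2% were in exons in siMyolinc cells (10 of 82), against 27.8% (25 of 90), 27.6% (8 of 29) and 44.0% (11 of 25) in controls, a control mean of 33.1% ± 9.42 (SD, n = 3). The siMyolinc library was the lowest of the 4, without overlap with the controls, and the difference was -20.9 percentage points. The exact two-sided permutation test gave p = 0.5, because control 3 stood farther from the other libraries than the siMyolinc library did. Adjusted over the 3 TDP-43 tests made here, p was 0.75 for each. Over all genes the exon share of TDP-43 peaks was also lower in siMyolinc cells, 6.93% against 18.8%, 24.1% and 25.6%, and the siMyolinc library was the deepest of the 4. The part of depth in this difference was not tested.

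The other antibodies had no replicates, and their exon shares went either way. With Pol II S2P 5.79% of collagen peaks were in exons in siMyolinc cells and 28.0% in control cells (3.76% and 21.4% of all peaks). With MyoD these were 6.13% in siMyolinc and 3.38% in control cells (3.68% and 1.85% of all peaks), and with Myogenin 11.8% and 1.49% (6.25% and 1.84% of all peaks). In 9 of the 10 lists the collagen share was above that of all peaks, Myogenin control being the exception. The transcripts that held collagen exon peaks had a median of 41.0 to 56.0 exons per list, against 11 to 13 for exon peaks of all genes.

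**Figure D3:**
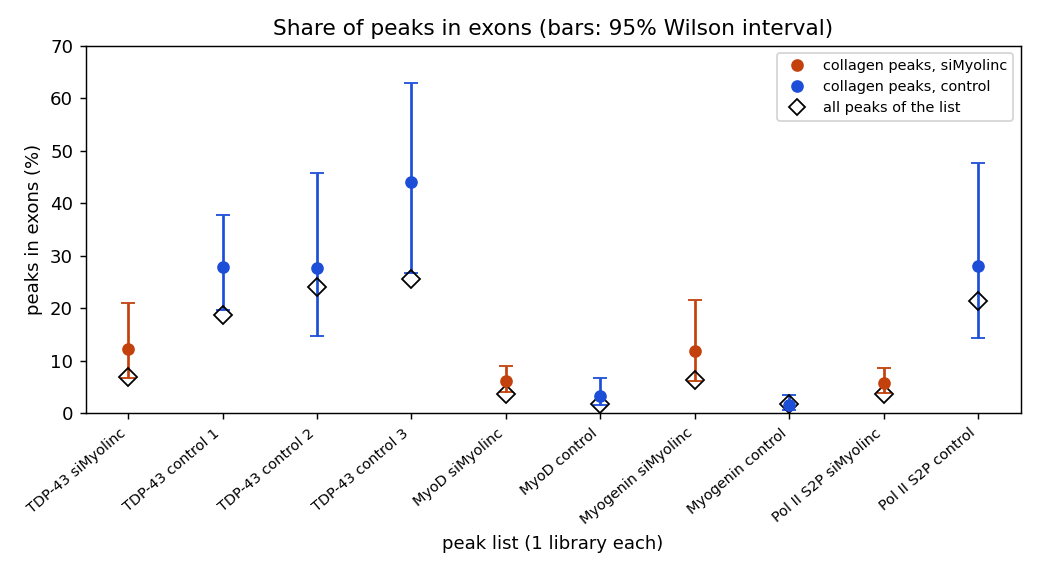
Percentage of peaks in exons for collagen peaks (filled points, orange for siMyolinc and blue for control, bars giving the 95% Wilson interval, which covers counting error only) and for all peaks of the same list (open diamonds). The TDP-43 siMyolinc point, 12.2%, lies below the 3 TDP-43 control points, and the Pol II S2P pair differs in the same direction.

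With TDP-43 35 of the 44 collagen genes had a peak of any class in siMyolinc cells (50.2% of all protein-coding genes did), against 37, 20 and 18 in controls (54.9%, 29.8% and 24.8%). With MyoD 43 had one in siMyolinc cells (84.3%) and 42 in control cells (72.2%), with Myogenin 31 (44.2%) and 43 (81.5%), and with Pol II S2P 44 (85.7%) and 19 (29.8%). Collagens with an exon peak numbered 8 with TDP-43 in siMyolinc cells (7.38% of all protein-coding genes had one), against 18, 7 and 10 in controls (19.0%, 9.85% and 8.32%). They numbered 15 in siMyolinc cells (15.4%) and 6 in control cells (5.93%) with MyoD, 8 (5.41%) and 5 (8.95%) with Myogenin, and 16 (16.9%) and 6 (8.98%) with Pol II S2P. Intron peaks were found at 24 collagen genes with TDP-43 in siMyolinc cells (27.0% of all genes), against 21, 11 and 8 in controls (25.7%, 10.5% and 8.30%). They were found at 42 in siMyolinc cells (58.4%) and 37 in control cells (46.9%) with MyoD, at 21 (23.2%) and 39 (54.6%) with Myogenin, and at 44 (59.4%) and 10 (11.1%) with Pol II S2P. Collagen genes are long, 7.11 to 420 kb in the reference table, and a count of genes with a peak does not allow for length.

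Per length of gene body the collagens lay near the level of all protein-coding genes in every list. TDP-43 gave 1.51 peaks per 100 kb of collagen gene in siMyolinc cells (1.31 over all genes), against 1.60, 0.496 and 0.441 in controls (1.81, 0.673 and 0.532 over all genes). MyoD gave 6.03 in siMyolinc and 3.34 in control cells (5.39 and 3.24 over all genes), Myogenin 1.12 and 5.07 (1.04 and 4.96), and Pol II S2P 6.47 and 0.496 (5.69 and 0.644). The collagen density was thus above that of all genes in the 4 siMyolinc lists and in the MyoD and Myogenin controls, and below it in the TDP-43 and Pol II S2P controls. The basement membrane genes alone lay below all genes in every list (for MyoD siMyolinc 3.91 against 5.39) except Myogenin control (5.54 against 4.96). When peaks of all lists were pooled, Col6a1 (81.1 per 100 kb), Col2a1 (72.1) and Col11a2 (72.0) were highest and Col4a6 (11.3) was lowest. The shortest gene, Col10a1 (7.11 kb), had 14.1 per 100 kb.

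**Figure D4:**
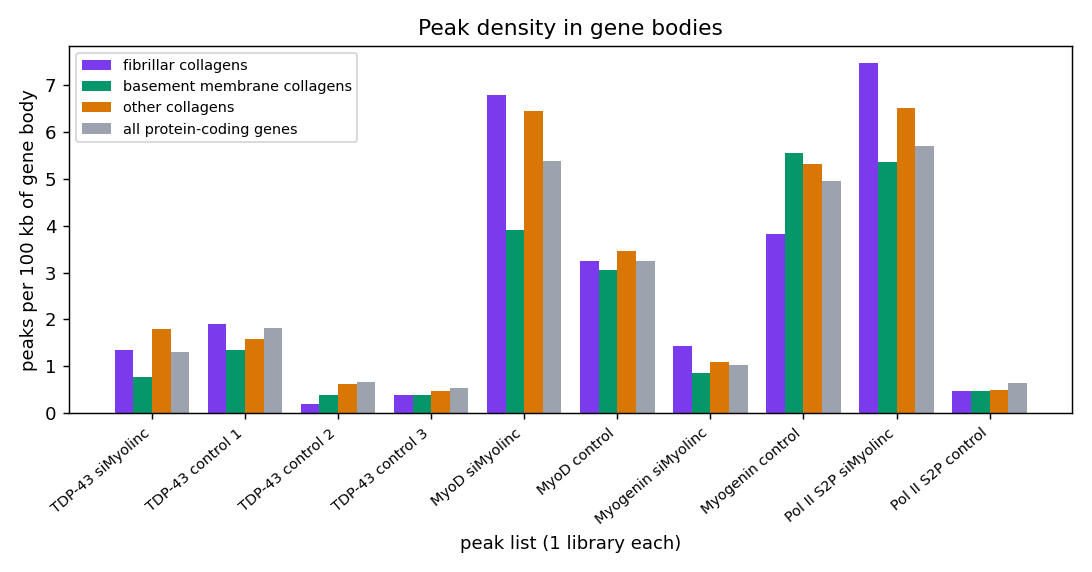
Peaks per 100 kb of gene body in each list for fibrillar, basement membrane and other collagens and for all protein-coding genes; each bar is 1 library. The siMyolinc bars are higher than the control bars for MyoD and Pol II S2P and lower for Myogenin, in collagens and in all genes alike.

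As a share of all peaks, collagens took 0.233 to 0.342% of each full list, with the siMyolinc value above that of each control of the same antibody. TDP-43 gave 0.329% in siMyolinc cells (82 peaks), against 0.303%, 0.274% and 0.306% in controls (90, 29 and 25 peaks), with a control mean of 0.295% ± 0.0176 (SD, n = 3). The difference of 0.0340 percentage points had an exact two-sided permutation p of 0.5. With lists of equal length TDP-43 gave 0.319% in siMyolinc cells, against 0.343%, 0.294% and 0.306% in controls. Without repeats it gave 0.403%, against 0.340%, 0.338% and 0.405%. The siMyolinc value was thus not the highest in either setting. MyoD gave 0.342% in siMyolinc cells (375 peaks) and 0.288% in control cells (207 peaks), a difference of 0.0544 percentage points with a 95% interval of 0.00112 to 0.106 from counting error alone. That interval included 0 when only peaks at or above the median score were kept (-0.0377 to 0.102). Myogenin gave 0.333% in siMyolinc cells (68 peaks) and 0.291% in control cells (335 peaks), with an interval for the difference of -0.0361 to 0.135. Under the same score limit the Myogenin difference was 0.119 percentage points, in place of 0.0414, with an interval of 0.00171 to 0.269. Pol II S2P gave 0.327% in siMyolinc cells (380 peaks) and 0.233% in control cells (25 peaks), with an interval of -0.0211 to 0.177.

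Most collagen peaks, like most peaks of all genes, were in a single list. The 1616 peaks fell on 1462 separate places, of which 1344 (91.9%) were in 1 list, 90 in 2 lists and 28 in 3 or more. Over all annotated peaks, 92.9% of places were in 1 list. The siMyolinc TDP-43 list overlapped 4 of 90 (4.44%), 2 of 29 (6.90%) and 3 of 25 (12.0%) collagen peaks of TDP-43 controls 1 to 3, where it overlapped 5.88%, 7.08% and 7.36% of all peaks of these lists. Control 1 covered 14 of 29 collagen peaks of control 2 (48.3%; 37.6% of all its peaks) and 13 of 25 of control 3 (52.0%; 39.8% of all). Peaks in all 3 controls were found at 4 places, named for Col17a1, Col18a1, Col4a4 and Col2a1, the last lying in the 3′ UTR of Senp1. Those 4 were 4.44%, 13.8% and 16.0% of the collagen peaks of controls 1 to 3, against 5.27%, 14.9% and 19.2% for all peaks. The siMyolinc TDP-43 list had none of the 4. The same share over all places found in the 3 controls was not counted, so this cannot be called particular to collagens.

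Overlaps across antibodies at collagens lay above, near or below those of all peaks, and many rested on few peaks. The Pol II S2P siMyolinc list overlapped 20 of 375 MyoD siMyolinc collagen peaks (5.33%, 95% interval 3.48 to 8.09%, against 2.89% of all). The MyoD siMyolinc list overlapped 5 of 68 Myogenin siMyolinc collagen peaks (7.35%, 95% interval 3.18 to 16.1%, against 1.70% of all). These differences were not tested. Of the 25 Pol II S2P control peaks, the Pol II S2P siMyolinc list overlapped 0 (95% interval 0 to 13.3%; 10.5% of all peaks of that list), and TDP-43 control 1 overlapped 10 (40.0%; 33.3% of all peaks). TDP-43 control 2 overlapped 5 of the 25 (20.0%; 19.4% of all peaks) and TDP-43 control 3 overlapped 1 (4.0%; 16.4% of all peaks). The MyoD siMyolinc list overlapped 5 of 207 MyoD control collagen peaks (2.42%; 1.77% of all), and the Myogenin siMyolinc list overlapped 3 of 335 (0.896%; 0.355% of all).

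The nearest-gene name did not always match the transcript a peak lay in. Of 1119 collagen peaks with a transcript in their annotation, 964 lay in one of the named gene and 155 in one of another gene. Of these 155, 38 were named for Col6a1 and lay in Pcbp3, and 25 were named for Col9a1 and lay in Col19a1, the collagen gene beside it. Counted by transcript instead, 1430 peaks lay in a collagen gene, of which 406 were named for another gene. By transcript the exon share of TDP-43 collagen peaks was 12.5% in siMyolinc cells (80 peaks), against 38.6%, 40.7% and 56.0% in controls (88, 27 and 25 peaks). The siMyolinc library was again lowest, and the permutation test reached its smallest p, 0.25.

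Collagen peaks lay in annotated repeats less often than the peaks of their lists. Any repeat was annotated at 19.5% of TDP-43 collagen peaks in siMyolinc cells (34.3% of all peaks), against 22.2%, 13.8% and 4.0% in controls (30.6%, 30.0% and 27.4% of all peaks). Over the 10 lists it was annotated at 4.0 to 32.5% of collagen peaks and 27.4 to 38.2% of all peaks, with the collagen share lower in each list; the differences were not tested. No TDP-43 collagen peak was annotated as a CpG island, where 0.821% of all siMyolinc TDP-43 peaks and 3.23%, 5.07% and 5.07% of control peaks were. A (CA)n or (TG)n repeat was annotated at 1 of 82 TDP-43 collagen peaks in siMyolinc cells, against 1 of 90, 0 of 29 and 0 of 25 in controls, where all peaks had 0.621% in siMyolinc cells and 4.72%, 5.43% and 4.55% in controls.

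Genes that make, bind or cleave collagen were counted alongside. Of the 46 found in the lists, 31 act in collagen synthesis and processing, 10 are receptors and 5 are collagenases. With TDP-43, 1 of the 46 had a promoter peak in siMyolinc cells (2.78% of all genes did), against 1, 0 and 1 in controls (5.65%, 2.34% and 1.83%). With MyoD there were 8 in siMyolinc cells (12.5% of all genes) and 5 in control cells (4.45%), with Myogenin 0 (2.72%) and 4 (7.20%), and with Pol II S2P 7 (9.91%) and 1 (1.71%). Ddr1, a receptor kinase that collagen activates, was the only 1 of them with a promoter peak in 3 lists: MyoD siMyolinc and TDP-43 controls 1 and 3.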

How the data were processed

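Each library came with 1 peak list, called against IgG; the submitters' processing notes name HOMER and mm10. Versions, aligner and calling thresholds: not given in the sources used here. The authors deposited, per the file headers, a score for each peak, its focus ratio (a fraction, not used in results), its class, its nearest gene and the signed distance in bp from that gene's start. The 42 peaks without annotation were left out. A deposited score divided by the step of its list gave tags. The step was fitted with the 1% highest scores set aside, and 100% of the remaining scores in each list were whole multiples within 0.05. Tags of the 1% highest were read with the same step, without this check. Scaling to 10000000 tags is HOMER's default and is stated in no header. Step fitting and overlap counting were tested on simulated data.

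Collagens were selected by gene name. The class of a peak refers to a transcript, which was looked up by its identifier. Overlap was 1 bp or more. A place is a run of overlapping collagen peaks. Gene lengths and promoters came from RefSeq tables of GRCm38.p6. Protein-coding status was the gene type given in the deposited peak annotation. TDP-43 libraries were compared by an exact two-sided permutation test over 4 libraries. Shares have 95% Wilson intervals, and differences of shares combine them, for counting error only, as PCR reads can be copies of 1 molecule. The genes named were all with a promoter peak, the 3 with most peaks and the 3 best-scoring peaks per list, those found in all 3 TDP-43 controls and those in all 10 lists; some recurrent places were added after their values were seen. Members and lists were chosen with earlier results of these data known. The 4 input and IgG samples were not analysed here. Python 3.11.15, pandas 2.3.3, numpy 2.4.6 and matplotlib 3.10.9 were used.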

Additional observations from a re-analysis of the deposited data

How the results depend on the processing

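Alternatives were peaks at or above the median score, lists cut to the 8162 best peaks, no repeats, members by transcript, each TDP-43 control left out, other promoter distances (1000 and 5000 bp) and other overlap rules. The cut could fall among equal scores, which were kept in order of chromosome and position. In the TDP-43 siMyolinc list, for one, peaks of 8 tags began at rank 6721 and those of 7 tags at rank 11329. Results with lists of equal length rest in part on that order. The Myogenin share difference was 0.147 percentage points with lists of equal length, against 0.0414. Control TDP-43 collagen peaks found again in siMyolinc cells averaged 7.78%, and 3.50% over the better-scoring part of each list (its median or more), 0% with lists of equal length and 13.6% with peaks extended by 500 bp. Without 1 TDP-43 control in turn, the difference in promoter genes was -2.50 to 0, reaching 0 without control 1. Within 1000 bp and 5000 bp of a start it was -4.67 and -4.33, against -1.33, with no share of all genes computed at these distances. Leaving out the controls in turn gave 0.0239 to 0.0399 percentage points for the TDP-43 share, -23.7 to -15.5 for the exon share and 5.67 to 9.45% for peaks found again. The causes were not tested. With lists of equal length the TDP-43 share difference was 0.00408 percentage points, against 0.0340. The other values kept their direction, and no permutation test could pass 0.05. No paired analysis was possible because siMyolinc and control share fewer than 2 replicate numbers for any antibody. Peaks of 4 to 6 tags lie near the lower limit of the shallow lists, so the absence of a peak there is not the absence of binding.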
